A study of Mus musculus with 9 samples.

Results

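The endoplasmic reticulum and the mitochondria of a cell touch at contact sites where calcium passes from one to the other. The 9 genes described here were chosen by symbol. Letm1 encodes a protein of cation and proton exchange, and the others encode the channels and the bridging protein of that route. The 9 are Itpr1, Itpr2, Itpr3, Hspa9, Vdac1, Vdac2, Vdac3, Mcu and Letm1, out of 26602 genes with at least 1 count in the series. All 9 had enough counts to be compared between genotypes, as had 18127 genes in all.

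At these contacts an IP3 receptor in the reticulum membrane opens when the messenger IP3 binds, and the released calcium enters the outer mitochondrial membrane through a VDAC channel. Grp75, the chaperone encoded by Hspa9, holds the receptor and the channel together, and the uniporter MCU then carries the calcium across the inner membrane. DJ-1, the Parkinson disease protein encoded by Park7, is known to associate with the complex of IP3 receptor, Grp75 and VDAC, and neurons of the substantia nigra carry a heavy calcium load because they fire without input.

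Midbrain tissue that included the substantia nigra pars compacta (SNpc) was sequenced from 4 DJ-1+/+ and 5 DJ-1−/− mice, with 1 library per animal. The DJ-1−/− (knockout) mice lack DJ-1 in every cell and had been backcrossed to C57BL/6 for 7 generations. The DJ-1+/+ (wild-type) mice were littermates of theirs, and both groups were 3 to 4 months old. The libraries were 3′ libraries with molecular tags, so counts stand for tagged RNA molecules read near their polyadenylated ends and do not grow with transcript length.

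The deposited counts of a library summed to between 841974 and 886085 in DJ-1+/+ mice and between 967751 and 1098125 in DJ-1−/− mice. All DJ-1−/− totals lay above all DJ-1+/+ totals, with a ratio of the means of 1.17 (two-sided exact permutation test, p = 0.0159, the smallest value that 4 against 5 libraries can give). Levels are therefore given as counts per 1000000 counts of the library (cpm), and a level of 3 counts, taken as the floor of detection, is worth between 2.73 and 3.56 cpm. This floor covers counting error only. The most abundant gene held only 0.107 to 0.142% of the counts of a library, a narrow range of levels for brain tissue. Whether the counts stay in proportion to the RNA of abundant genes was not tested, so levels, their order and ratios hold on the scale of the deposited counts.

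Park7 itself had 132, 105, 113 and 118 counts in the DJ-1+/+ and 23, 29, 14, 19 and 19 counts in the DJ-1−/− libraries. Each library thus followed its genotype label. The log2 fold change of DJ-1−/− against DJ-1+/+ was −2.71 (SE 0.15, adjusted p = 7.44e-08 by edgeR after Benjamini-Hochberg correction over all genes), and the groups did not overlap.

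At an adjusted p under 0.05 none of the 9 calcium genes differed between the genotypes, in edgeR's quasi-likelihood test or in DESeq2, where 0.00552% of all genes tested did in edgeR. At an unadjusted p under 0.05, 1 of the 9 was called, Itpr1, by either tool, and 2.82% of all genes tested were called in edgeR. Itpr1 was lower in DJ-1−/− mice, and genes called in that direction made up 1.27% of those tested. No member had cpm values that kept the genotypes apart, a pattern found in 1.25% of all genes tested. Of the 9 members, 4 were higher and 5 lower, around a median log2 fold change of −0.01, and over all genes tested the median was 0.01. In a tissue sample such as this, fewer cells of a type and less RNA per cell cannot be told apart.

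Averaged over the 9 libraries, the members fell into an order of levels from Vdac1 at 213 cpm (SD 15.8, n = 9) down to Itpr3 at 7.30 cpm (SD 3.67, n = 9). Below Vdac1 came Hspa9 at 174, Vdac2 at 170, Letm1 at 139, Itpr1 at 120, Itpr2 at 100.3, Vdac3 at 90.5 and Mcu at 78.1 cpm. Vdac1 exceeded Hspa9 in 9 of 9 libraries, and Vdac2 exceeded Letm1 in 9 of 9. Hspa9 and Vdac2 did not differ beyond their spread, with Hspa9 the higher in 5 of 9 libraries. The neighbours Letm1 and Itpr1, Itpr1 and Itpr2, and Itpr2 and Vdac3 kept their order in 7, 8 and 7 libraries. Vdac3 exceeded Mcu in 6. Itpr1 exceeded Letm1 in DJ-1+/+ replicates 1 and 4. Mean levels of Itpr1 and Letm1 were 138 and 140.1 cpm in DJ-1+/+ mice and 106 and 138 cpm in DJ-1−/− mice. Mcu lay above Itpr3 in all 9 libraries without overlap. Ranked by mean count among all genes tested, Vdac1 stood at the 98.1 percentile, Hspa9 at 96.3, Mcu at 71.0 and Itpr3 at 25.5.

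**Figure D1:**
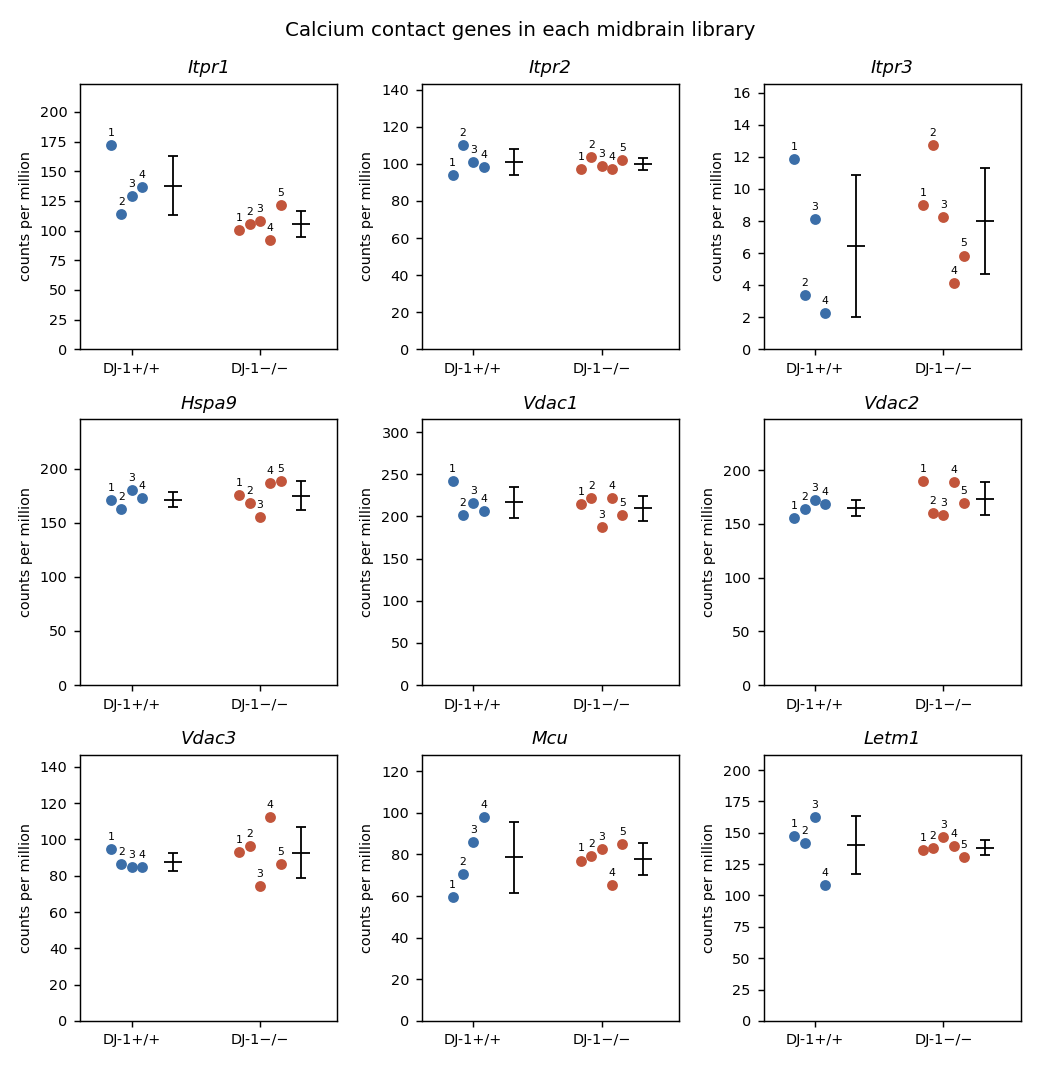
Level of each of the 9 calcium contact genes in cpm (vertical axis, starting at 0) in the 4 DJ-1+/+ (blue) and 5 DJ-1−/− (red) libraries, numbered by replicate, with the mean and SD of each group in black. Itpr1 reached 172 cpm in DJ-1+/+ replicate 1 and lay between 92.0 and 122 cpm in the DJ-1−/− libraries, while the groups overlap for every gene.

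The IP3 receptors open the route on the reticulum side. Itpr1, the receptor that dominates in neurons and is most abundant in cerebellar Purkinje cells, had 145, 100, 111 and 121 counts in DJ-1+/+ and 100, 116, 105, 89 and 125 counts in DJ-1−/− libraries. In cpm these were 172, 114, 129 and 137 cpm, against 100.1, 106, 108, 92.0 and 122 cpm. The DJ-1+/+ libraries held the highest 3 values, but DJ-1−/− replicate 5 lay above DJ-1+/+ replicate 2, so the groups overlapped. Mean levels were 138 cpm (SD 24.8, n = 4) and 106 cpm (SD 11.03, n = 5). The log2 fold change was −0.38 (SE 0.12, 95% interval −0.63 to −0.14), which is a ratio of 0.768 (0.648 to 0.909), with an unadjusted p of 0.00442 and an adjusted p of 0.9999 in edgeR.

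DJ-1+/+ replicate 1, the library with the most Itpr1, also stood apart in marker genes of cerebellar neurons. The summed level of the 7 cerebellar markers was 703 cpm in that library and 132, 87.3 and 120 cpm in the other DJ-1+/+ libraries. In DJ-1−/− mice it was 90.1, 94.7, 119, 105 and 94.5 cpm. All 7 markers were found in the series and each was lower in DJ-1−/− mice on average, 6 at an unadjusted p under 0.05 in edgeR, where 1.27% of all genes tested were called lower, 2 in DESeq2 and 1 with Xist as a covariate. This came from DJ-1+/+ replicate 1, as without it 5 could be tested, of which 3 were lower, 2 higher and 0 called.

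The most abundant of them was Car8, whose protein binds the type 1 IP3 receptor in Purkinje cells. Car8 had 144 counts in DJ-1+/+ replicate 1, 54, 29 and 51 in the other DJ-1+/+ libraries, and 36, 41, 49, 44 and 45 in DJ-1−/− libraries. Its log2 fold change was −0.92 (SE 0.34, unadjusted p of 0.0147) and −0.26 without DJ-1+/+ replicate 1, no longer at a p under 0.05. The marker with the widest range was Cbln3, a granule cell gene, at 151 cpm in DJ-1+/+ replicate 1 and at most 9.11 cpm elsewhere. The defining Purkinje gene Pcp2 had 79 counts there and at most 2 in any other library, with 0 in wild-type replicate 2 and knockout replicates 3 and 4. The granule cell gene Gabra6 was at 0 in wild-type replicate 4 and knockout replicates 1, 3, 4 and 5, and Fat2 was at 0 in wild-type replicate 2 and knockout replicates 3, 4 and 5.

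A second library, DJ-1+/+ replicate 4, was highest in choroid plexus markers, and DJ-1+/+ replicate 1 came next, above all DJ-1−/− libraries. The 7 markers, all found in the series, summed to 287, 60.2, 105 and 630 cpm in the DJ-1+/+ and to 96.1, 172, 109, 56.8 and 101 cpm in the DJ-1−/− libraries. All 7 were lower in DJ-1−/− mice, 5 at an unadjusted p under 0.05 in edgeR, where 1.27% of all genes tested were called lower. In DESeq2 3 were called, and 1 with Xist as a covariate. Without DJ-1+/+ replicate 4 the 6 that could be tested were lower with 0 called. Ttr, the most abundant and the widest in range, ran from 28.4 cpm in DJ-1+/+ replicate 2 to 386 cpm in replicate 4. Kcne2 was at 0 in wild-type replicates 2 and 3 and knockout replicates 3, 4 and 5, Folr1 in wild-type replicate 2 and knockout replicate 5, and Kl in knockout replicate 4.

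Without DJ-1+/+ replicate 1, the log2 fold change of Itpr1 was −0.26 (SE 0.10, unadjusted p of 0.0262). The 3 remaining DJ-1+/+ levels were then 114, 129 and 137 cpm. With DJ-1+/+ replicate 4 alone left out, the log2 fold change was −0.38 (SE 0.13, unadjusted p of 0.00836 in edgeR). Without both DJ-1+/+ replicates 1 and 4 it was −0.20 (SE 0.12, unadjusted p of 0.124), so the call ended with both libraries left out. That fit kept DJ-1+/+ replicates 2 and 3, the lowest of their group in Itpr1 at 114 and 129 cpm. The part of cerebellar or choroid plexus RNA in the level of Itpr1 was not tested beyond these values.

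**Figure D2:**
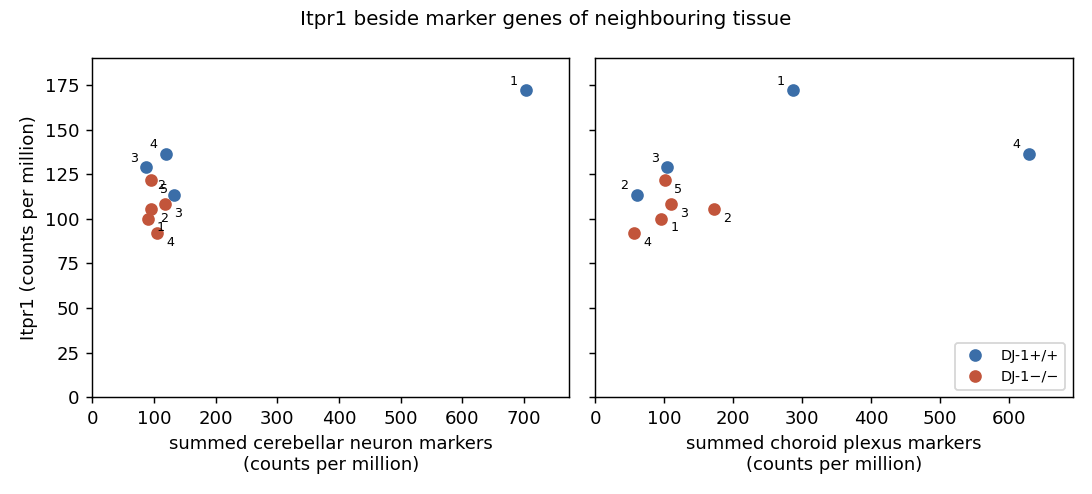
Itpr1 level in cpm (vertical axis) against the summed level of the 7 cerebellar neuron markers (left) and the 7 choroid plexus markers (right) (also in cpm) for the DJ-1+/+ (blue) and DJ-1−/− (red) libraries numbered by replicate. DJ-1+/+ replicate 1 stands at 172 cpm of Itpr1 and 703 cpm of cerebellar markers, and DJ-1+/+ replicate 4 at 137 and 630 cpm for choroid plexus markers.

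The libraries also differed in sex-linked expression, which the labels do not mention. The Y-linked gene Ddx3y reached 121 and 113 counts in wild-type replicates 1 and 4 and 152 in knockout replicate 5, and was at most 4 elsewhere. Among those 3 libraries Itpr1 was at 172 and 137 cpm in DJ-1+/+ and at 122 cpm in DJ-1−/−. Among the other 6 it was at 114 and 129 cpm in DJ-1+/+ and between 92.0 and 108 cpm in the 4 DJ-1−/− libraries. In each genotype the libraries with Ddx3y held the most Itpr1, and with 1 DJ-1−/− library among them the part of sex in its level was not tested apart from the covariate below. With the level of Xist as a covariate the log2 fold change of Itpr1 was −0.26 (SE 0.09, unadjusted p of 0.0130). The 2 DJ-1+/+ libraries with Ddx3y are the same ones that were highest in cerebellar or choroid plexus markers. Leaving both out took away the DJ-1+/+ libraries with Ddx3y and kept the DJ-1−/− library with it.

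Itpr2, the receptor found mainly in astrocytes and other glia, had 79, 97, 87 and 87 counts in DJ-1+/+ and 97, 114, 96, 94 and 105 in DJ-1−/− libraries. At means of 100.9 cpm (SD 6.95, n = 4) and 99.9 cpm (SD 3.06, n = 5), it was the steadiest member, and its highest and lowest levels were both in DJ-1+/+ mice. Between genotypes the log2 fold change was −0.01 (SE 0.10), and the 95% interval of the ratio ran from 0.864 to 1.14. DESeq2 gave −0.02 with a larger SE of 0.13.

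Itpr3, the receptor type described in the DJ-1 complex and abundant in epithelia, was low and in some libraries near the floor. It had 10, 3, 7 and 2 counts in DJ-1+/+ and 9, 14, 8, 4 and 6 counts in DJ-1−/− libraries. DJ-1+/+ replicate 4 was below the floor of 3 counts, replicate 2 was at it, and the groups overlapped across nearly their whole range. A ratio of 1.26 between the genotypes came with a 95% interval from 0.623 to 2.53, so a difference of that size in either direction was not detectable at this depth. The log2 fold change of Itpr3 was 0.33 (SE 0.48), and it was 0.80 without DJ-1+/+ replicate 1 and 0.05 without DJ-1+/+ replicate 4.

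The share of each receptor in the summed Itpr counts does not depend on the depth of a library. Itpr1 made up 62.0% of 234 Itpr counts in DJ-1+/+ replicate 1 (95% Wilson interval 55.6 to 67.9), and 54.1% and 57.6% in replicates 3 and 4, while replicate 2 had 100 of 200. In the DJ-1−/− libraries its share was 48.5%, 47.5%, 50.2%, 47.6% and 53.0%. The mean share was 55.9 ± 5.09% (SD, n = 4) in wild-type and 49.4 ± 2.28% (SD, n = 5) in knockout mice, with DJ-1+/+ replicate 2 inside the DJ-1−/− range. Itpr2 accounted for 41.5 ± 6.05% (SD, n = 4) and 46.9 ± 2.13% (SD, n = 5), and Itpr3 for 2.54 ± 1.57% (SD, n = 4) and 3.72 ± 1.45% (SD, n = 5). The count ratio of Itpr1 to Itpr2 was 1.84 in DJ-1+/+ replicate 1, and it was below 1 in a single library, DJ-1−/− replicate 4, at 0.947. These shares are a description and were not tested.

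Hspa9 encodes Grp75, the mitochondrial chaperone that ties the receptor to VDAC. It had 144, 143, 155 and 153 counts in DJ-1+/+ and 176, 185, 151, 181 and 194 counts in DJ-1−/− libraries. Once the deeper DJ-1−/− libraries were allowed for, the mean levels were 172 cpm (SD 7.31, n = 4) and 175 cpm (SD 13.7, n = 5), and DJ-1−/− replicate 3 was the lowest of all 9 at 156 cpm. The log2 fold change was 0.03 (SE 0.08), and the 95% interval of the ratio was 0.911 to 1.14.

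The VDAC channels form the pores of the outer membrane, and Vdac1 is the isoform most often placed at the contacts. Vdac1 had 204, 177, 186 and 183 counts in DJ-1+/+ and 215, 244, 182, 215 and 207 in DJ-1−/− libraries. DJ-1+/+ replicate 1 was the highest at 242 cpm and DJ-1−/− replicate 3 the lowest at 188 cpm, with all other libraries between 201 and 222 cpm. The ratio of the genotypes was 0.970 (95% interval 0.865 to 1.09).

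Vdac2, the isoform that also holds the cell death protein Bak at the membrane, had 131, 144, 148 and 149 counts in DJ-1+/+ and 190, 176, 153, 183 and 174 in DJ-1−/− libraries. DJ-1−/− replicates 1 and 4 were highest at 190.2 and 189 cpm, and the other 3 lay among the DJ-1+/+ levels of 156 to 172 cpm. Its ratio was 1.05 (95% interval 0.934 to 1.18).

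Vdac3, the least abundant isoform here, had 80, 76, 73 and 75 counts in DJ-1+/+ and 93, 106, 72, 109 and 89 in DJ-1−/− libraries. The DJ-1+/+ levels lay between 84.6 and 95.01 cpm, while DJ-1−/− levels spread from 74.3 cpm in replicate 3 to 113 cpm in replicate 4. The DJ-1−/− libraries thus enclosed the whole DJ-1+/+ range, and the ratio was 1.06 (95% interval 0.895 to 1.25).

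Within the VDAC family the shares were close between genotypes. Vdac1 made up 46.1 ± 2.09% (SD, n = 4) of Vdac counts in DJ-1+/+ and 44.1 ± 1.53% (SD, n = 5) in knockout mice, and Vdac2 35.2 ± 2.43% (SD, n = 4) and 36.5 ± 1.84% (SD, n = 5). The count ratio of Vdac1 to Vdac2 was highest in DJ-1+/+ replicate 1, at 1.56, and between 1.13 and 1.39 in the 8 other libraries. Vdac3 supplied 18.7 ± 0.629% (SD, n = 4) and 19.4 ± 1.47% (SD, n = 5).

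In the inner membrane, Mcu encodes the pore of the calcium uniporter. Its counts were 50, 62, 74 and 87 in DJ-1+/+ and 77, 87, 80, 63 and 87 in DJ-1−/− libraries. DJ-1+/+ replicates 1 and 4 were the lowest and the highest of all 9 libraries, at 59.4 and 98.2 cpm, and every DJ-1−/− level lay between them. The genotype means were 78.5 cpm (SD 17.1, n = 4) and 77.7 cpm (SD 7.66, n = 5), a ratio of 0.989 (95% interval 0.808 to 1.21). From Mcu to the pore of the outer membrane, the count ratio of Vdac1 to Mcu ran from 2.10 in DJ-1+/+ replicate 4 to 4.08 in replicate 1, and from 2.28 to 3.41 in DJ-1−/− libraries.

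Letm1 encodes an inner membrane protein of cation and proton exchange, with a debated part in calcium transport. It had 124, 125, 140 and 96 counts in DJ-1+/+ and 136, 151, 142, 135 and 134 counts in DJ-1−/− libraries. DJ-1+/+ replicate 4 was lowest at 108 cpm and replicate 3 highest at 163 cpm, and the 5 DJ-1−/− libraries lay between 131 and 146 cpm. With means of 140.1 cpm (SD 23.0, n = 4) and 138 cpm (SD 5.77, n = 5), the ratio was 0.985 (95% interval 0.857 to 1.13).

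For the 7 members other than Itpr1 and Itpr3, the log2 fold changes lay between −0.04 for Vdac1 and 0.08 for Vdac3. The sign of so small a difference depended on the libraries used, as it turned for 6 of these 7 genes when a single library was left out.

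The members differed in how much they varied between mice of one genotype. At the mean library depth the variance within genotype was 2.63 times the mean for Itpr1, 1.92 for Mcu, 1.67 for Letm1, 1.29 for Vdac3 and 1.20 for Vdac1, where counting error alone gives a variance equal to the mean. For Vdac2, Hspa9 and Itpr2 it was below the mean, at 0.885, 0.714 and 0.246 times. Itpr3, with a mean of 7 counts, was at 1.90 times. The value of Itpr1 includes DJ-1+/+ replicate 1, at 172 cpm against 114 to 137 cpm in the other DJ-1+/+ libraries. Its place above the other members was not tested without that library. Over the 7309 genes with a mean of at least 50 counts the median was 1.02, and 48.8% of them were below 1. A median near 1 is low for separate animals. Between libraries of one genotype, the chi-square statistic per degree of freedom ran from 1.07 to 2.27. The source of the low median was not tested, so standard errors and intervals hold for the spread found in these counts. Counting error alone sets an SD of 10.3% of the mean for Itpr2, whose observed SD was 5.09%, and of 9.38% for Itpr1, whose observed SD was 15.2%.

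Among the genes whose levels followed Itpr1 most closely over the 9 libraries were Mzt1, Trio, Ift88 and Ppm1d. Likeness was measured as the root mean square difference of log2(cpm + 1), each gene centred on its own mean, among 10770 genes with a mean of at least 20 counts. Mzt1, which encodes a protein of the gamma-tubulin ring, was at 0.129, Trio and Ift88 at 0.131 each and Ppm1d at 0.132. A gene with the same level in every library would be at 0.254 from Itpr1. Mzt1 stood at 84.3, 62.5, 62.8 and 59.8 cpm in DJ-1+/+ and at 50.05, 59.2, 54.7, 38.2 and 63.3 cpm in DJ-1−/− libraries. As for Itpr1, DJ-1+/+ replicate 1 was the highest of all 9, and DJ-1−/− replicates 5 and 4 were the highest and the lowest of their group. Mzt1 was picked for its likeness to Itpr1 over these libraries, so the shared places are not a separate result.

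A list of 44 other genes of the route was compared in the same way: proteins of the contact site, uniporter subunits, mitochondrial exchangers, calcium pumps, channels and buffers of the reticulum, enzymes and receptors of IP3 production, and regulators of the IP3 receptor. All 44 were tested, 20 higher and 24 lower, with a median log2 fold change of −0.01. None had an adjusted p under 0.05 in edgeR or DESeq2. At an unadjusted p under 0.05, 1 gene was higher, Ahcyl1, and none was lower, in edgeR as in DESeq2, and 1.55% of all genes tested were called higher. For no gene of the list did the cpm keep the genotypes apart.

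Ahcyl1 encodes IRBIT, a protein that occupies the IP3 site of the receptor and is released when IP3 binds. It had 195, 155, 164 and 160 counts in DJ-1+/+ and 241, 247, 215, 213 and 254 counts in DJ-1−/− libraries. In cpm these were 232, 176, 191 and 181 against 241, 225, 222, 220.1 and 248. DJ-1+/+ replicate 1 lay among the DJ-1−/− libraries and the other 3 below all of them, so Itpr1 and Ahcyl1 both had their highest DJ-1+/+ level in replicate 1 while differing between genotypes in opposite directions. The log2 fold change of Ahcyl1 was 0.25 (SE 0.09, 95% interval 0.07 to 0.43), with an unadjusted p of 0.0104 and an adjusted p of 0.9999 in edgeR. Without both DJ-1+/+ replicates 1 and 4 it was 0.34 (unadjusted p of 0.00374). Summed astrocyte markers, 5 of 5 found with none at 0 in any library, were 777, 651, 707 and 712 cpm in DJ-1+/+ and 739, 769, 691, 709 and 704 cpm in DJ-1−/− libraries.

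Among the other regulators of the receptor, Tespa1 had at most 3 counts in a library, under which no ratio is given. Of the 10 contact site proteins, 6 were higher and 4 lower, none at an unadjusted p under 0.05. The lowest was Pdzd8, a tether of the reticulum, at a log2 fold change of −0.15 (SE 0.10). It passed an unadjusted p of 0.05 when DJ-1+/+ replicate 1 was left out, at −0.23 (unadjusted p of 0.0433), and when DJ-1−/− replicate 5 was, at −0.22 (unadjusted p of 0.0400). Pdzd8 was at 99.8, 124, 126 and 126 cpm in DJ-1+/+ libraries, with replicate 1 apart from the rest. The 6 uniporter genes ran from −0.12 (SE 0.14) for Mcur1, an assembly factor, to 0.07 (SE 0.08) for Smdt1, which encodes the essential subunit EMRE. Smdt1 was at 140.4 cpm (SD 3.67, n = 4) in wild-type and 148 cpm (SD 9.31, n = 5) in knockout mice, well above the pore gene Mcu.

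The exits of calcium from the mitochondrion are represented by Slc8b1, the sodium calcium exchanger, and Ghitm, a proposed proton calcium exchanger. Slc8b1 had between 1 and 9 counts per library and a ratio of 1.04 (95% interval 0.487 to 2.24), and Ghitm, at 190.5 and 193 cpm, a ratio of 1.02 (95% interval 0.900 to 1.15). Among 9 pumps, channels and buffers of the reticulum, the extremes were both ryanodine receptors, Ryr1 at −1.09 (SE 0.61) and Ryr3 at 0.07 (SE 0.18). Ryr1 had 7, 6, 1 and 4 counts in DJ-1+/+ and 1, 2, 3, 5 and 1 in DJ-1−/− libraries. With counts of 1 and 2 below the floor of 3 counts, Ryr1 has a log2 fold change of uncertain size. It passed an unadjusted p of 0.05 without DJ-1+/+ replicate 3, at −1.41 (unadjusted p of 0.0271), and without DJ-1−/− replicate 4, at −1.54 (unadjusted p of 0.0333), and was at −0.72 without both libraries high in marker genes. The calcium pump gene Atp2a3 lay close to the threshold, with 26, 11, 14 and 10 counts in wild-type and 12, 15, 6, 11 and 10 in knockout libraries. Its log2 fold change was −0.73 (SE 0.34, unadjusted p of 0.0505), with calls under 6 of the 18 alternatives, and −0.32 (unadjusted p of 0.346) without DJ-1+/+ replicate 1, its highest library.

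Of the 11 genes of IP3 production and breakdown, 4 were higher and 7 lower. At an unadjusted p under 0.05 no gene of this role was called. The highest was Plcb2, a phospholipase of blood cells, which had at most 5 counts in a library and is given no ratio.

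**Figure D3:**
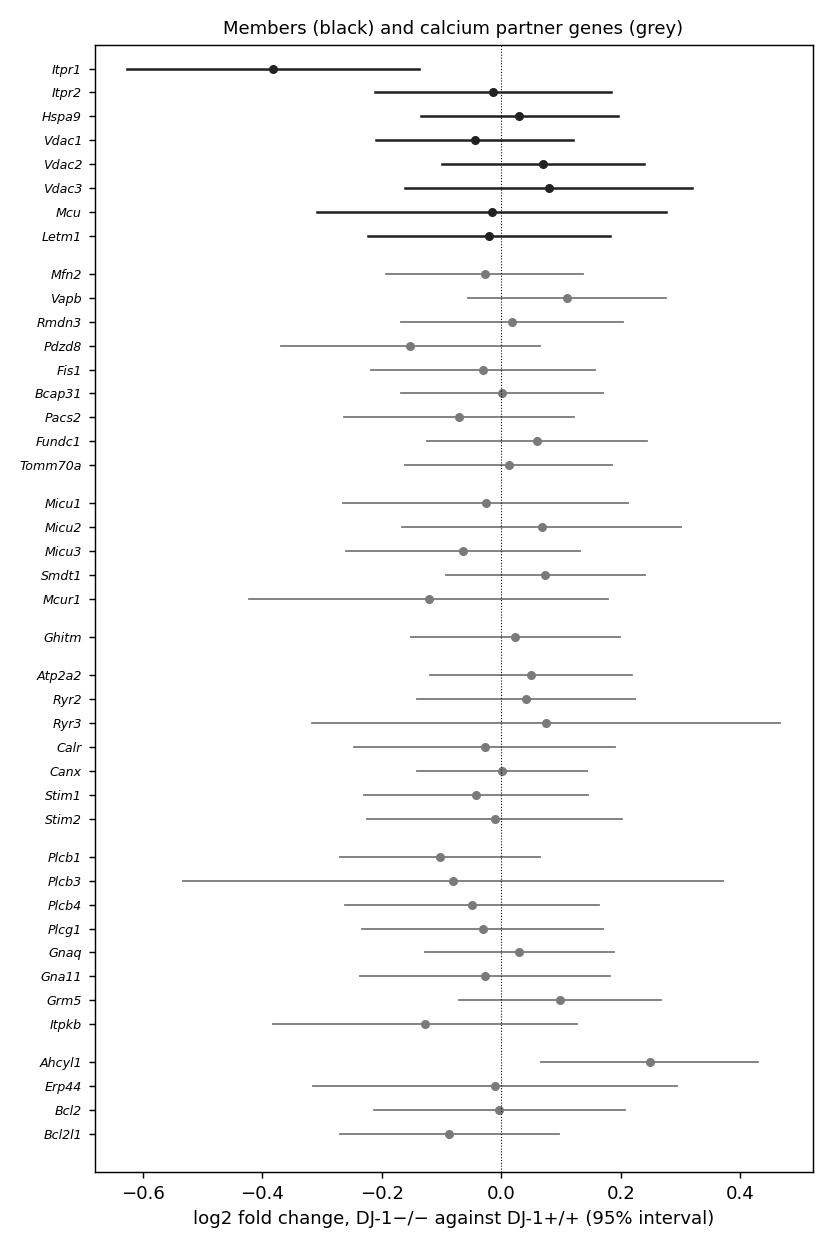
Log2 fold change of DJ-1−/− against DJ-1+/+ (horizontal axis) with its 95% interval for the calcium contact genes (black) and the partner genes (grey) reported here with a mean of at least 20 counts per library, grouped by role. The intervals of Itpr1, at −0.38, and Ahcyl1, at 0.25, do not reach 0, and no adjusted p was under 0.05.

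The tissue itself was checked with further marker lists. All 9 dopaminergic neuron markers were found, and their sum was 697, 908, 560 and 459 cpm in DJ-1+/+ and 785, 854, 812, 957 and 717 cpm in DJ-1−/− libraries. Each of the 9 was higher in knockout mice, around a median log2 fold change of 0.40, and 4 of them had an unadjusted p under 0.05 in edgeR, where 1.55% of all genes tested were called higher, and 0 in DESeq2. The calls did not hold in every setting, as 0 were called without DJ-1+/+ replicate 3 or 4, or without DJ-1−/− replicate 2 or 4. The same held with Xist as a covariate and without both libraries high in marker genes. In these settings 8 or 9 of the 9 markers were higher, and why the calls ended was not tested. Their part in the differences of Itpr1 and Ahcyl1 was not tested. Aldh1a1 was the most abundant at 151 cpm, Slc6a3 had the widest range, from 23.3 to 130 cpm (log2 fold change 0.86, SE 0.35, unadjusted p of 0.0263), and Pitx3 was at 0 in wild-type replicates 3 and 4. Forebrain neuron markers summed to between 42.9 and 184 cpm, with Neurod2 the most abundant and the widest in range. The neuron list, led by Syt1, and the microglia list, led by Cx3cr1, each varied by at most 1.14 times between libraries. For oligodendrocytes, led by Mbp, and endothelial cells, led by Flt1 and with Ly6c1 the widest in range, the factor was 1.29, and for astrocytes, led by Slc1a3 and with Aqp4 the widest in range, 1.19. Of the 9 calcium genes, 2 had their highest level of all libraries in DJ-1+/+ replicate 1, Itpr1 and Vdac1, and 3 their lowest, Itpr2, Vdac2 and Mcu. The next most were in DJ-1−/− replicate 3, with 3 lowest levels, and DJ-1+/+ replicate 4, with 1 highest and 2 lowest.

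In the GRCm38 assembly with GENCODE M21 annotation, Itpr1 (ENSMUSG00000030102) and Itpr2 (ENSMUSG00000030287) lie on chromosome 6, Itpr1 from 108213096 to 108551109 on the plus strand and Itpr2 from 146108299 to 146502223 on the minus strand. Itpr3 (ENSMUSG00000042644) is on chromosome 17 from 27057304 to 27122223 on the plus strand. On the minus strand of chromosome 18, Hspa9 (ENSMUSG00000024359) spans 34937414 to 34954357. Vdac1 (ENSMUSG00000020402) is on chromosome 11 from 52360860 to 52389397 and Vdac2 (ENSMUSG00000021771) on chromosome 14 from 21825238 to 21845879, both on the plus strand. On the minus strand, Vdac3 (ENSMUSG00000008892) spans 22577075 to 22593813 of chromosome 8, Mcu (ENSMUSG00000009647) 59446984 to 59616692 of chromosome 10, and Letm1 (ENSMUSG00000005299) 33739673 to 33782817 of chromosome 5. The 9 genes thus lie on 8 chromosomes, none of them chromosome 4, which carries Park7.

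Because 3′ reads come from the end of a transcript, the last 500 bases of the longest coding transcript of each member were searched for stretches of 50 bases held by other genes. For 8 of the 9 none was found. In Vdac3, 16 of 451 stretches were shared with the pseudogenes Vdac3-ps1, Gm15970 and Gm7591, which had at most 2 counts in any library. Hspa9-ps1, a processed copy of Hspa9, had at most 1 count.

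Among the genes that overlap a member, Comtd1 had the most counts, 395 over the 9 libraries. It runs against Vdac2 on the opposite strand, and the ends of the 2 genes share 25 bases. Comtd1 had 26, 44, 43 and 35 counts in DJ-1+/+ and 70, 53, 46, 54 and 24 in DJ-1−/− libraries. Whether strand was used in counting is not given in the sources used here, so reads from that shared end cannot be told apart. The pseudogene Gm15720 within Itpr2 had at most 3 counts per library, as did Gm10059 within Letm1.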

How the data were processed

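The authors deposited, for each mouse, the count of molecules per gene as whole numbers without normalization. The submitters' processing notes name fastp 0.20.0, STAR 2.7.3a, featureCounts 2.0.0 of Subread and UMI-tools 1.0.0 with the GRCm38 build, and the use of strand is not given there. A gene not listed in a library was given 0 counts. The 9 members were found by symbol in GENCODE M21, as were all 104 genes of the lists. The members and lists were chosen with earlier results of these data known.

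Genes with at least 10 counts in total were tested with edgeR 4.0.16 (TMM, glmQLFit, glmQLFTest, genotype as the single term, Benjamini-Hochberg adjustment over all genes) in R 4.3.3. A standard error is the log2 fold change divided by the square root of F. Where edgeR raised p to its bound for counting error, the error that matches this p replaced it if larger, a step added with the values known that changed no p. Exact permutation tests used scipy 1.17.1. The fit was tested on simulated data. Named are all members, Park7, Car8, partner genes with an unadjusted p under 0.05 or the extreme log2 fold change of their role, the most abundant and the most variable marker of each list, pseudogenes and overlapping genes, and the 5 genes most like the most variable member. Some genes that this rule takes are not reported here, and they stay in the counts of the lists. Pcp2, Atp2a3 and the marker genes at 0 were added with their values known. The alternatives were RLE size factors, library totals, DESeq2 1.42.0, no filter, filterByExpr, thinned counts, Xist as a covariate, a replicate block, each library left out, and both libraries high in cerebellar or choroid plexus markers left out. The chi-square statistic per degree of freedom between libraries of one genotype ran from 1.07 to 2.27 over 16 pairs, and none was treated as a copy.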

Additional observations from a re-analysis of the deposited data

Results flagged for a closer look

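Among 60 groups of 4 or 5 libraries examined for a library far from the others, 3 had one, where chance gives about 1 in 20 groups, or 3. Vdac3 was at 95.01 cpm in DJ-1+/+ replicate 1, against 84.6 to 86.4 cpm in the other DJ-1+/+ libraries. Pdzd8 was at 99.8 cpm in the same library, against 124 to 126 cpm. The cerebellar neuron markers summed to 703 cpm in DJ-1+/+ replicate 1, against 87.3 to 132 cpm. In all 3 cases the library was DJ-1+/+ replicate 1, and what sets it apart was not tested for Vdac3 or Pdzd8.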

How the results depend on the processing

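Itpr1 was lower in DJ-1−/− mice under all 18 alternatives, at an unadjusted p under 0.05 in 17, with log2 fold changes from −0.47 to −0.20 and adjusted p from 0.150 to 0.999996 in edgeR and DESeq2. The exception, without both libraries high in marker genes, gave −0.20 and left 0 members called. Ahcyl1 kept its direction and an unadjusted p under 0.05 in all 18, from 0.20 to 0.34.

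Genes with an adjusted p under 0.05 numbered 36 without a filter on low counts and 1 to 2 with each library left out. At an unadjusted p under 0.05, they numbered 235 in DESeq2, 338 with filterByExpr, which tests fewer genes, 802 without a filter, and 338 to 732 with each library left out. Partner genes called numbered 2, Ahcyl1 and Atp2a3, with RLE size factors, without a filter and in thinned counts, and 1 to 3 with each library left out. The cause of these shifts was not tested.

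Replicate numbers come from the labels, and no source pairs the mice. Correlations of same-numbered libraries' deviations ran from −0.20 to 0.29, and 1 of 4 DJ-1+/+ libraries was closest to its own number. With replicate number as a block, 8 genes had an adjusted and 564 an unadjusted p under 0.05, with 1 member and 2 partner genes called at the latter. Itpr1 was at −0.44, Park7 at −2.68, Hspa9 at −0.0045 and Ryr3 at −0.065 in this block.

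Small differences turned sign in other settings. With each library left out, Itpr2 ran from −0.045 to 0.025, Hspa9 from −0.0050 to 0.071, Vdac1 from −0.084 to 0.014, Vdac3 from −0.0091 to 0.15, Mcu from −0.13 to 0.11 and Letm1 from −0.13 to 0.058. Among partners, Mcur1 ran from −0.24 to 0.00053, Ghitm from −0.024 to 0.062, Slc8b1 from −0.16 to 0.33 and Ryr3 from −0.073 to 0.21. With Xist as a covariate Mcu was at 0.0067 and Slc8b1 at −0.31, and without both libraries high in marker genes Vdac1 was at 0.012 and Slc8b1 at −0.26. The cause was not tested. Slc8b1, Ryr1 and Itpr3 gave no value with filterByExpr. Depth limits Itpr3, Ryr1, Slc8b1, Plcb2 and Tespa1, whose mean counts per library ran from 1.33 to 7.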
